A study of Arabidopsis thaliana with 9 samples.

Results

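The core and linker histone genes of Arabidopsis thaliana were followed in roots that cannot make normal amounts of gibberellin. The members were fixed by locus: 43 genes of the H2A, H2B, H3, H4 and H1 families. A probe table of the array placed 30 of them on 28 probe sets out of 22746, 14 probe sets with 1 gene each and 14 shared by several genes. The 12 H2A genes and the H2B gene HTB9 (AT3G45980) had no named probe set and were not analysed here.

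Histones are the proteins around which nuclear DNA is wound. Pairs of H2A, H2B, H3 and H4 form the nucleosome core, and H1 binds the linker DNA between cores. Genes of H2B, H3.1 and H4 are transcribed mainly while DNA is replicated, so in a root their transcripts are strongest in the dividing cells near the tip and in new lateral root primordia. H3.3 is a replacement variant that is also made and deposited outside replication, and CENH3 takes the place of H3 at centromeres.

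The study measured whole roots 7 days after germination on Affymetrix ATH1 arrays, 1 array per sample and 3 biological replicates per group. All groups carried ga1-3, a mutation of the gibberellin biosynthesis gene GA1. The groups were ga1-3 alone, ga1-3 scl3-1, in which the GRAS-family gene SCL3 has lost its function, and ga1-3 SCL3OE, labelled as overexpressing SCL3. Seedlings were kept on MS plates under 16 h light at 22 °C, and the promoter of the overexpression construct and the number of independent lines are not given in the sources used here. Values are MAS5 signals on a linear scale, which the authors had scaled to a common trimmed mean of 496 to 497 on each array. No probe set was named for the altered genes SCL3 or GA1, so their signals gave no check of the labels. Precision is limited by having 3 arrays in each group.

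The SCL3OE arrays were spread more widely than the others. Their median signals were 183 to 185, against 190 to 204 on the other 6 arrays, and their 99th percentiles were 8374 to 9087 against 5846 to 6649. Many histone probe sets are bright, so the changes in SCL3OE were also computed after quantile normalization, which makes the arrays' distributions equal, and after centring each array on its median. These values are given below where they end, add or turn a call against ga1-3. In the comparison of SCL3OE with ga1-3, the median log2 change of all tested probe sets was -0.07 as deposited, -0.0034 after quantile normalization and 0.02 with median-centred arrays. Of all tested probe sets 18.8% were then called higher and 19.9% lower after quantile normalization, and 22.6% and 19.7% with median-centred arrays, beside 18.0% and 25.9% as deposited. In whole roots, fewer cells of a type and less RNA per cell cannot be told apart. The root hair expansin genes EXPA7 and EXPA18 had mean signals of 708 to 1776 in all groups, while the listed shoot and root meristem markers were on no named probe set, so neither leaf material nor the size of the meristem was checked by markers.

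Of the 28 histone probe sets, 24 were tested, because at least 3 arrays reached the 40th percentile of their own array (a signal of 105.9 on average). They were 8 of H2B, 5 of H3.1, 3 of H3.3, 1 of CENH3, 5 of H4 and 2 of H1. The 4 others were too dim. HIS1-3 (AT2G18050), the drought-inducible linker histone gene, lay between 54.2 and 112. The H2B gene AT5G02570 lay between 33.7 and 68.8, and both probe sets of AT1G13370, an H3 gene, stayed at or below 22.3. One of the latter also binds AT1G75600.

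The H3.1, H3.3 and H4 genes encode identical or nearly identical proteins, and the probe table gives each of their probe sets the whole family. The 5 H3.1 probe sets all list AT1G09200, AT3G27360, AT5G10390, AT5G10400 and AT5G65360. The 3 H3.3 probe sets list AT4G40030, AT4G40040 and AT5G10980, and the 5 H4 probe sets list 8 genes, among them HIS4 (AT2G28740). On this array type the suffix _s_at marks probes known to be shared by transcripts, and a plain _at was designed for a single transcript. Which gene each plain one reads is not known here, so these probe sets are named by their identifiers.

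Loss of SCL3 moved none of the tested histone probe sets past the threshold. In limma 0 of 24 were called in scl3-1 against ga1-3 at an adjusted p under 0.05, where 0.538% of all 14117 tested probe sets were called. At an unadjusted p under 0.05 in limma there were 2 of the 24, beside 1506 of all 14117 tested probe sets. Each alternative analysis also called 0 histone probe sets. The log2 changes lay between -0.22 and 0.15 with a median of -0.04, against a median of 0.01 over all tested probe sets. The 95% interval of the change stayed within 1.5-fold in either direction for 23 of the 24 and within 2-fold for all of them. It stayed within 1.5-fold for 85.8% of all tested probe sets too, and for 96.4% of those with a mean signal of at least 1000. Within 2-fold it stayed for 13958 of all 14117.

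The lowest p belonged to HTB4 (AT5G59910), an H2B gene. Its signals were 4290, 4402 and 4441 in ga1-3 and 4084, 3975 and 3278 in scl3-1. The scl3-1 arrays were all lower, but the change of -0.22 (SE 0.09) gave an adjusted p of 0.417 in limma. The other probe set with groups that did not overlap was 252849_at of the H3.3 genes, with a change of -0.19 (SE 0.08, adjusted p = 0.427). Non-overlap in scl3-1 was thus seen for 2 of 24 histone probe sets, against 14.1% of all tested ones. Both were lower, as were 6.68% of all tested probe sets, and 0 histone probe sets were higher, against 7.37%. At an adjusted p under 0.05 the background was 0.368% higher and 0.170% lower. By family, the median changes were 0.00 for H2B, -0.08 for H3.1, -0.19 for H3.3, -0.04 for H4 and -0.06 for H1.

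**Figure D1:**
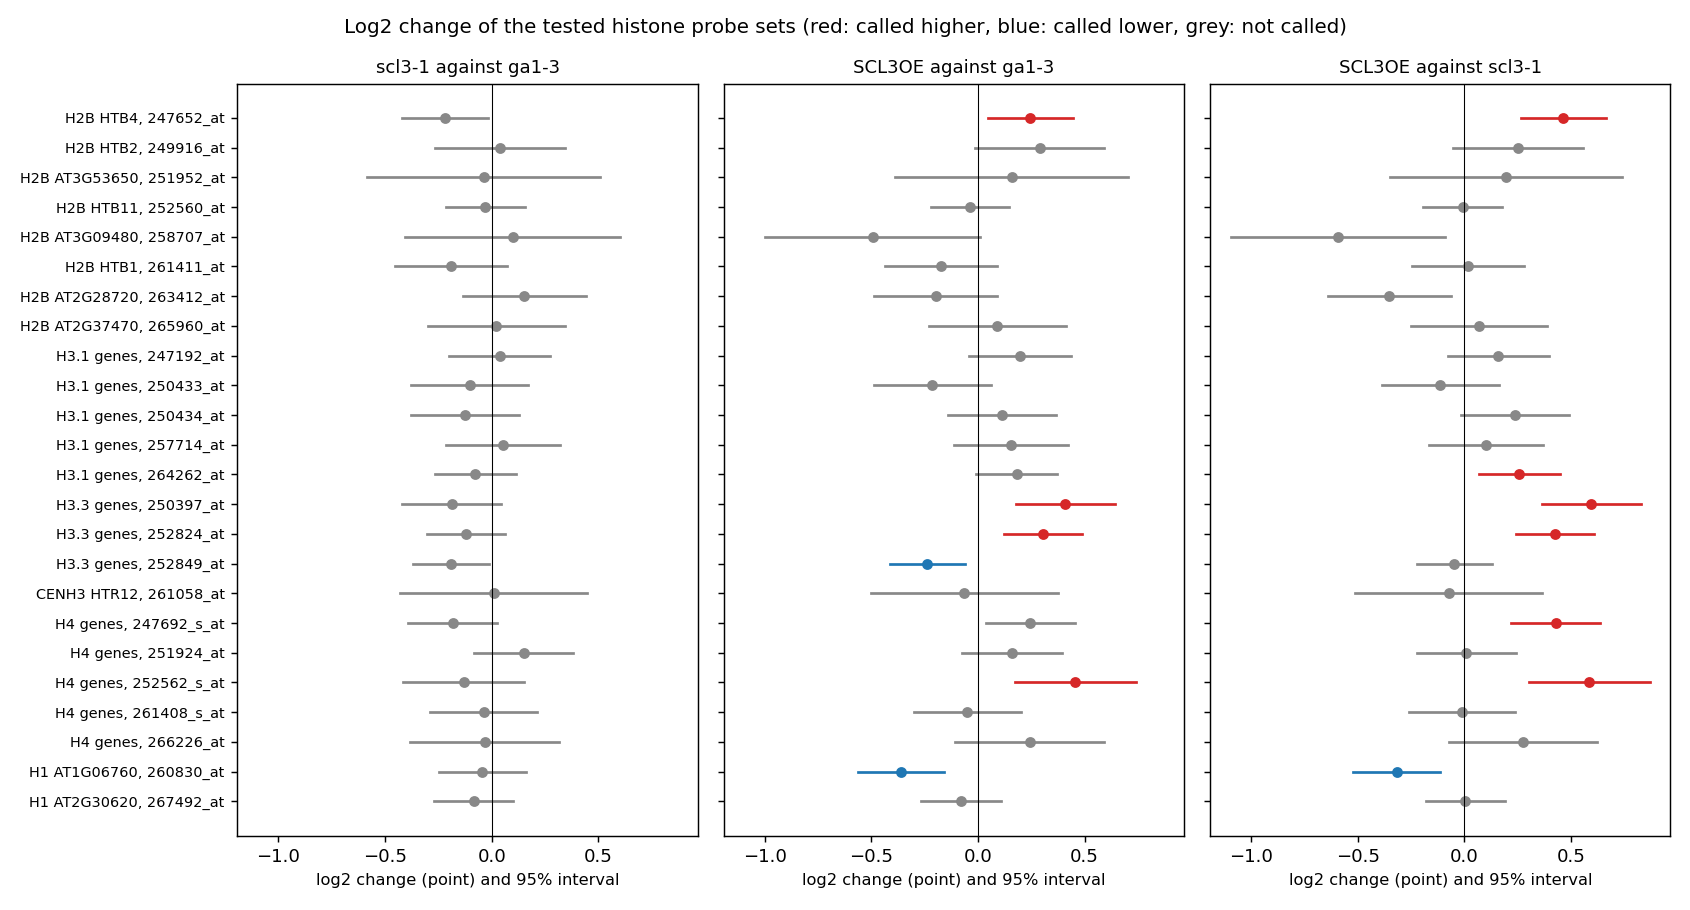
Log2 change (x axis) of each of the 24 tested histone probe sets (y axis, by family) in the 3 comparisons, as points with 95% intervals from limma, red where called higher, blue where called lower and grey otherwise. In scl3-1 every point is grey and lies between -0.22 and 0.15, and in SCL3OE against ga1-3 the 4 red and 2 blue points include all 3 H3.3 probe sets.

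In SCL3OE against ga1-3, 6 of the 24 histone probe sets were called. Of these, 4 were higher and 2 lower, 16.7% and 8.33% of the tested members, where 18.0% and 25.9% of all tested probe sets were called higher and lower. Altogether 25% of the members and 43.8% of all tested probe sets were called. The arrays of the groups did not overlap for 6 of 24 members, 4 higher and 2 lower, while 53.6% of all tested probe sets did not, 22.1% higher and 31.5% lower. Among probe sets with a mean signal of at least 1000, 4 of 16 histone probe sets were higher and 2 lower, beside 31.2% and 21.2% of all 3674 such probe sets. None changed 2-fold: the changes lay between -0.49 and 0.46. Changes of at least 2-fold were also a small share of all tested probe sets, 771 of 14117. Among those with a mean signal of at least 1000 they were 147 of 3674. The median was 0.13, against -0.07 over all tested probe sets. After quantile normalization the same 24 had a median of -0.05 with 2 called higher and 4 lower, and with median-centred arrays a median of 0.22 with 7 higher and 1 lower. Only 14 of the 24 kept 1 sign under all 3 scalings, and 2 were called in the same direction under all of them: AT1G06760 (lower) and 252562_s_at of H4 (higher).

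AT1G06760 encodes a main linker histone, H1, and gave the lowest adjusted p of the members in SCL3OE. Its signals were 3895, 4199 and 3599 in ga1-3, 3513, 3914 and 3908 in scl3-1, and 3187, 2730 and 3198 in SCL3OE. All SCL3OE arrays lay below all others, which did not separate from each other. The fall of 0.36 on the log2 scale (SE 0.10, adjusted p = 0.00661, limma) was called under each of the 19 alternatives. Quantile normalization gave -0.52 (adjusted p = 0.000836). Median-centred arrays gave -0.28 (adjusted p = 0.0371).

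The second tested H1 gene, AT2G30620, did not pass. Its signals were 3366, 3586 and 3756 in ga1-3 and 3307, 3329 and 3495 in SCL3OE, with a change of -0.08 (95% interval -0.27 to 0.11, adjusted p = 0.493). After quantile normalization it was called lower (-0.23, adjusted p = 0.0371), and with median-centred arrays it was at 0.00. The scl3-1 signals of 3653, 3136 and 3318 overlapped both other groups.

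As deposited, all 3 H3.3 probe sets, which list the same genes, were called in SCL3OE against ga1-3, and they did not move in 1 direction. Of all tested probe sets with a mean signal of at least 1000, 52.3% were called in that comparison. After quantile normalization all 3 changes were negative, and only that of 252849_at was called. For 250397_at the signals were 5882, 8008 and 6536 in ga1-3, 6031, 5772 and 6002 in scl3-1, and 8011, 9527 and 9458 in SCL3OE. The lowest SCL3OE array exceeded the highest ga1-3 array by a few units only. The change from ga1-3 was 0.41 (SE 0.11, adjusted p = 0.00686), but -0.09 after quantile normalization (adjusted p = 0.38).

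252824_at of the same genes read 5468, 6114 and 5839 in ga1-3, 5719, 5162 and 5145 in scl3-1, and 6975, 6982 and 7546 in SCL3OE. SCL3OE was separated from both other groups, with a change from ga1-3 of 0.30 (SE 0.09, adjusted p = 0.00936) that turned to -0.13 after quantile normalization (adjusted p = 0.178). With median-centred arrays both were higher, by 0.49 and 0.39.

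The probe set 252849_at went the other way. It read 5929, 6630 and 6292 in ga1-3, 5468, 5418 and 5623 in scl3-1, and 5045, 5307 and 5647 in SCL3OE. Here both lines lay below every ga1-3 array and overlapped each other. The change in SCL3OE was -0.24 (SE 0.08, adjusted p = 0.031). It was -0.59 after quantile normalization (adjusted p = 2.46e-05), but it did not pass with median-centred arrays (-0.15, adjusted p = 0.208), without a dim filter (0.069), by eBayes without trend (0.063), or without ga1-3 replicate 2 (0.0973), ga1-3 replicate 3 (0.0628), SCL3OE replicate 1 (0.126) or SCL3OE replicate 2 (0.0857).

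A ratio between probe sets of the same array is not altered by the array's scaling factor. The log2 ratio of 252824_at to 252849_at was -0.12, -0.12 and -0.11 in ga1-3 and 0.06, -0.07 and -0.13 in scl3-1. In SCL3OE it was 0.47, 0.40 and 0.42, above all other arrays. The difference from ga1-3 was 0.54 and that from scl3-1 was 0.47, each with p = 0.1 in a two-sided exact permutation test, the smallest p that 3 against 3 arrays allow. The ratio of 250397_at to 252849_at differed from ga1-3 by 0.65 and from scl3-1 by 0.64, also with exact p = 0.1. Quantile normalization left differences of 0.46 and 0.50 from ga1-3 in these ratios. Between 250397_at and 252824_at, SCL3OE and ga1-3 overlapped (0.11, exact p = 0.4). On these arrays the probe sets of the H3.3 genes gave unequal changes, but with its smallest p at 0.1 the exact test cannot establish this. Whether the probe sets read different H3.3 genes was not tested. They were compared after their values had been seen.

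**Figure D2:**
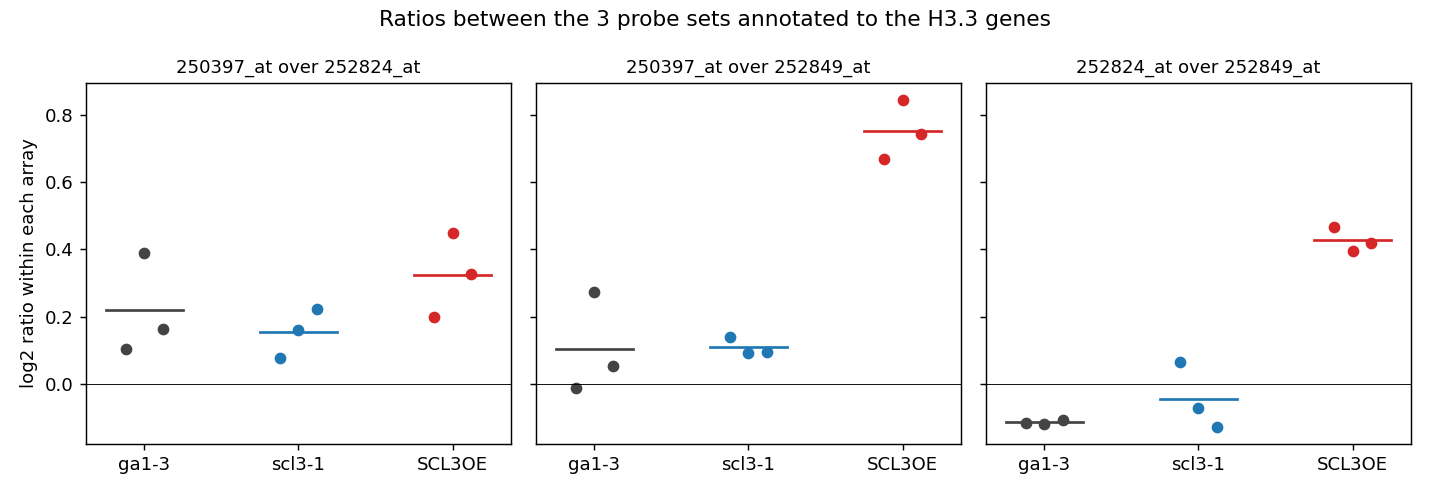
Log2 ratio within each array (y axis) between pairs of the 3 probe sets listed for the H3.3 genes, with 1 point per array and the group mean as a line, for ga1-3, scl3-1 and SCL3OE (x axis). In the panels with 252849_at as the denominator the 3 SCL3OE points lie above the 6 others, and in the remaining panel they overlap with ga1-3.

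The 5 H4 probe sets had a median change of 0.24 in SCL3OE against ga1-3, which was -0.01 after quantile normalization and 0.33 with median-centred arrays. Among them 252562_s_at was called higher. It read 2025, 1415 and 1474 in ga1-3, 1636, 1366 and 1443 in scl3-1, and 2414, 2349 and 1920 in SCL3OE. The highest ga1-3 array, replicate 1, lay above the lowest SCL3OE array. The change of 0.46 (SE 0.13, adjusted p = 0.0119) was nearly the same after quantile normalization (0.45, adjusted p = 0.0154). It did not pass without ga1-3 replicate 2 (adjusted p = 0.0631), SCL3OE replicate 1 (0.0575) or SCL3OE replicate 2 (0.0516).

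The direction of the bright H4 probe set 247692_s_at depended on the scaling. Its signals were 6406, 7525 and 6690 in ga1-3, 6924, 5828 and 5466 in scl3-1, and 8124, 7982 and 8288 in SCL3OE, which was above both other groups. The change from ga1-3 was 0.25 (SE 0.10, adjusted p = 0.0545) as deposited. It was 0.33 with median-centred arrays (adjusted p = 0.0296) but -0.25 on quantile-normalized ones (adjusted p = 0.0264). In the deposited scaling it was called higher with only the 6 arrays compared (0.0381), without ga1-3 replicate 2 (0.0281) and without scl3-1 replicate 1 (0.0273). A call in opposite directions under 2 scalings leaves its direction undetermined here.

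The 3 remaining H4 probe sets did not pass under any of the 3 scalings. 266226_at read 1258, 695 and 794 in ga1-3 and 1134, 1024 and 989 in SCL3OE, so that 1 ga1-3 array lay above every SCL3OE array. Its change of 0.24 (SE 0.16, adjusted p = 0.247) became 0.50 without ga1-3 replicate 1 (adjusted p = 0.00233). With array weights it was 0.38 (adjusted p = 0.0295). The changes of 251924_at and 261408_s_at were 0.16 (SE 0.11) and -0.05 (SE 0.12).

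No H3.1 probe set was called in SCL3OE against ga1-3. For 264262_at, with the lowest p of the family, the signals were 2438, 2273 and 2124 in ga1-3, 2202, 2044 and 2228 in scl3-1, and 2632, 2421 and 2693 in SCL3OE. The SCL3OE and ga1-3 arrays overlapped by a narrow margin, and the change of 0.18 (95% interval -0.01 to 0.37, adjusted p = 0.113) passed with median-centred arrays (0.26, adjusted p = 0.0308). The 4 others changed by -0.21 to 0.20. The bright probe set 247192_at changed by 0.20 as deposited and by -0.01 after quantile normalization.

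Of the 10 H2B genes 9 had a probe set of their own, and 1 of the 8 tested was called. HTB4 read 5108, 5483 and 4994 in SCL3OE, above the ga1-3 values of 4290 to 4441. The rise of 0.25 (SE 0.09, adjusted p = 0.0453) was close to the threshold and turned to -0.05 after quantile normalization (adjusted p = 0.667). It also ended without a dim filter (0.0816), by eBayes without trend (0.0837), and without any 1 of the ga1-3 or SCL3OE arrays or without scl3-1 replicate 2 (adjusted p 0.052 to 0.162).

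HTB2 (AT5G22880) read 999, 820 and 608 in ga1-3 and 1026, 917 and 965 in SCL3OE. Its change of 0.29 (SE 0.14, adjusted p = 0.115) did not pass, but it passed on quantile-normalized arrays (0.39, adjusted p = 0.0421), on median-centred ones (0.37, adjusted p = 0.0381), when arrays were weighted (0.32, adjusted p = 0.0431) and without ga1-3 replicate 1 (0.46, adjusted p = 0.0101). HTB11 (AT3G46030) stayed at 2095 to 2370 over all 9 arrays, with a change of -0.04 (95% interval -0.22 to 0.15). Its sign was positive with median-centred arrays (0.05). HTB1 (AT1G07790) changed by -0.17 (SE 0.12) and AT2G28720 by -0.20 (SE 0.14), and neither passed under any of the 3 scalings.

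The dim H2B gene AT3G09480 had the lowest log2 change of the members, -0.49 (SE 0.24, adjusted p = 0.104). Its signals were 231, 139 and 129 in ga1-3, 195, 139 and 187 in scl3-1, and 141, 126 and 84.0 in SCL3OE. The groups overlapped, and several values lay near the filter level. AT2G37470 changed by 0.09 (SE 0.15) and AT3G53650 by 0.16 (SE 0.26). AT3G53650 read 418, 193 and 167 in ga1-3, with replicate 1 again above the others.

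HTR12 (AT1G01370), which encodes the centromeric histone CENH3, did not pass in any comparison. It read 172, 129 and 118 in ga1-3, 150, 123 and 146 in scl3-1, and 147, 96.5 and 162 in SCL3OE. The groups overlapped fully, and the change in SCL3OE against ga1-3 was -0.06. Its 95% interval was -0.50 to 0.37, so changes within these bounds remain possible.

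**Figure D3:**
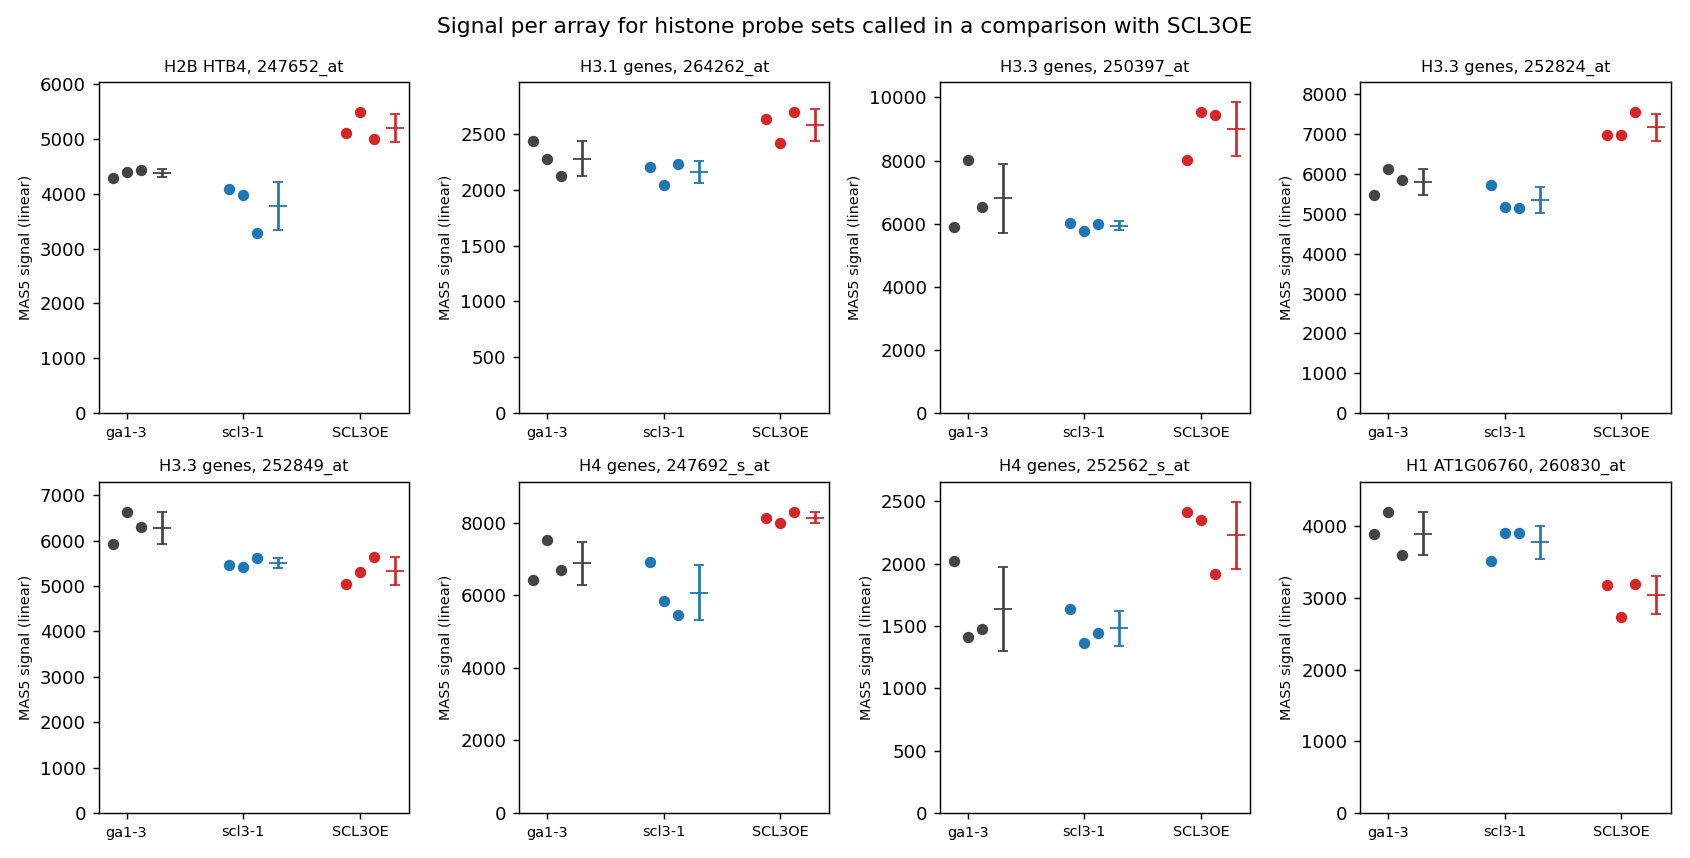
MAS5 signal on a linear axis from 0 (y axis) for the 8 histone probe sets called in SCL3OE against ga1-3 or against scl3-1, with 1 point per array and the mean ± SD of 3 arrays beside each group (x axis). AT1G06760 is lowest in SCL3OE, 252849_at is lower in SCL3OE than in ga1-3, and the other 6 have their highest means in SCL3OE, where the values of the bright ones depend on the scaling.

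SCL3OE was also set directly against scl3-1, which asks how the gain and the loss of SCL3 differ. Of the 24 histone probe sets 6 were called higher and 1 lower, where 15.5% and 23.6% of all tested probe sets were, or 39.2% in either direction. The groups did not overlap for 8 higher and 2 lower members, and for 52.8% of all tested probe sets, 21.3% higher and 31.5% lower. For probe sets with a mean signal of at least 1000 the background was 30.1% higher and 18.6% lower, beside 6 and 1 of 16 members. After quantile normalization 1 member was higher and 2 were lower, beside 16.4% and 17% of all tested probe sets. With median-centred arrays 8 were higher and 0 lower, beside 22.4% and 15.6%. This comparison shares the SCL3OE arrays with the one against ga1-3, so their values stand side by side and are not independent.

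Between SCL3OE and scl3-1 the H4 probe set 252562_s_at differed by 0.59 (SE 0.13, adjusted p = 0.00272) and without overlap of the groups. Quantile-normalized arrays gave 0.59 (adjusted p = 0.00374) and median-centred ones 0.71 (adjusted p = 0.000447), and it was called under all 19 alternatives. HTB4 differed by 0.46 (SE 0.09, adjusted p = 0.00117), or by 0.19 after quantile normalization (adjusted p = 0.102). The H3.3 probe sets 250397_at and 252824_at differed by 0.60 (SE 0.11) and 0.42 (SE 0.09), and by 0.06 and -0.01 after quantile normalization. 252849_at differed by -0.05 (SE 0.08, adjusted p = 0.693), or by -0.42 after quantile normalization (adjusted p = 0.000562).

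AT1G06760 was lower in SCL3OE than in scl3-1 by 0.32 on the log2 scale (SE 0.10, adjusted p = 0.0159). With median-centred arrays the difference was -0.20 and did not pass (adjusted p = 0.141), nor did it without scl3-1 replicate 2 (0.0573), scl3-1 replicate 3 (0.0571) or SCL3OE replicate 2 (0.097). The H4 probe set 247692_s_at differed by 0.43 (SE 0.10) and by -0.09 after quantile normalization. The H3.1 probe set 264262_at differed by 0.26 (SE 0.09, adjusted p = 0.0315) and did not pass after quantile normalization (0.109), by eBayes without trend (0.0586), or without scl3-1 replicate 2 (0.113), scl3-1 replicate 3 (0.0502), SCL3OE replicate 1 (0.0982) or SCL3OE replicate 3 (0.116). Among H2B genes that did not pass, AT2G28720 read 698, 641 and 585 in scl3-1 and 485, 563 and 462 in SCL3OE, without overlap (-0.35, SE 0.14, adjusted p = 0.0516), and AT3G09480 differed by -0.59 (SE 0.24, adjusted p = 0.0592). With a replicate block both were called (0.0319 and 0.0279).

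**Figure D4:**
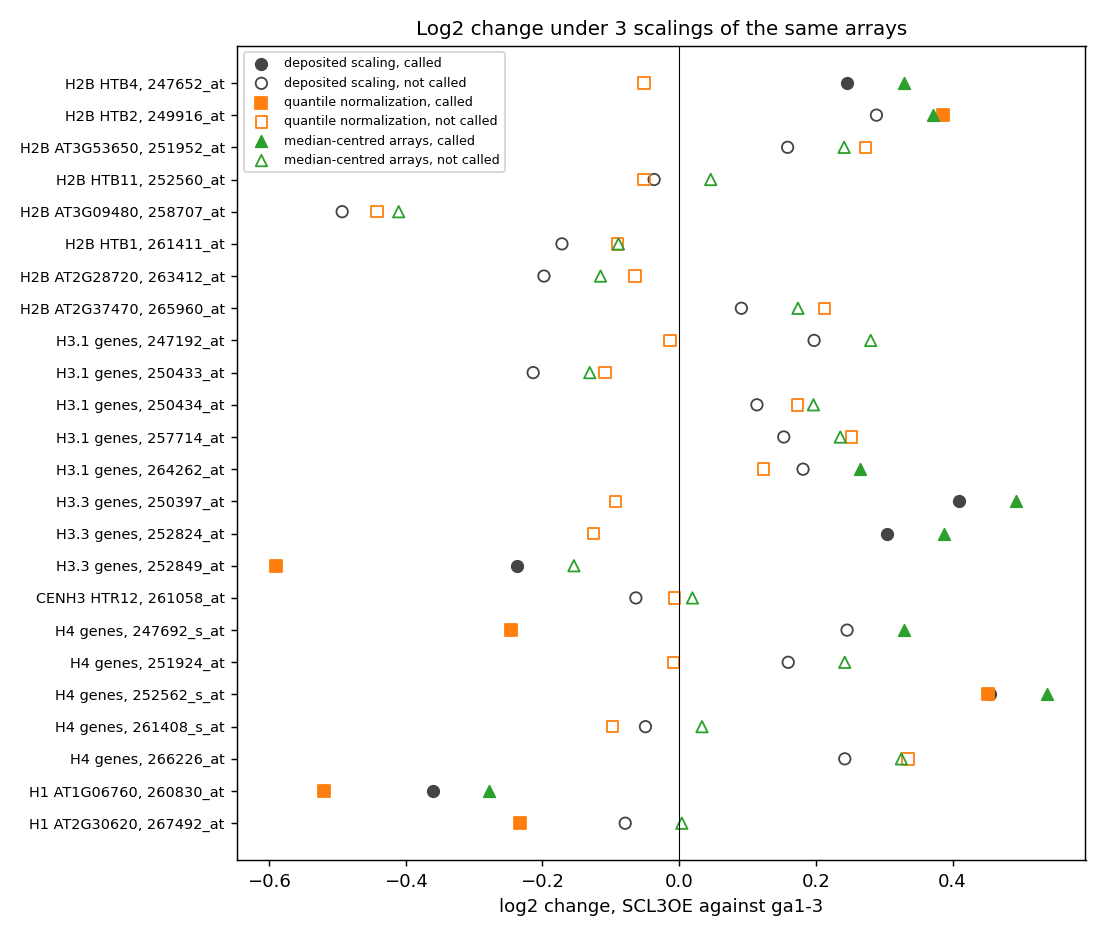
Log2 change in SCL3OE against ga1-3 (x axis) of the 24 tested histone probe sets (y axis) as deposited (circles), after quantile normalization (squares) and with median-centred arrays (triangles), filled where called at an adjusted p under 0.05. AT1G06760 and 252562_s_at are filled under all 3, while 247692_s_at is at -0.25 after quantile normalization and at 0.33 with median-centred arrays.

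Most probe sets of the replication-linked families, but not their brightest, shared a difference between replicates of ga1-3. In ga1-3 replicate 1, 15 of the 18 probe sets of H2B, H3.1 and H4 were the highest of their group (83.3%), where this array was highest for 40.8% of all tested probe sets. Their median deviation from the group mean was 0.23 on the log2 scale in replicate 1, -0.07 in replicate 2 and -0.15 in replicate 3. Over all tested probe sets these deviations were 0.02, -0.01 and -0.01. The 3 exceptions were 247652_at (HTB4), 247192_at of H3.1 and 247692_s_at of H4, named after their values were seen. They were also the brightest of the 18, with ga1-3 means of 4378, 3708 and 6874. The next brightest was 251924_at of H4, at 3208.5. On replicate 1 the 3 exceptions deviated by -0.03, -0.14 and -0.10. Replicate 1 also had the highest median signal of its group, 201 against 190 and 193. Its 99th percentile was the lowest, 5846 against 6649 and 6192. The part of this narrower distribution in the deviations was not tested.

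The 5 probe sets of H3.3 and H1 did not follow the pattern of most of the 18, and in ga1-3 replicate 1 none of them was highest of the group. Their median deviation on that array was -0.08, while HTR12 of CENH3 deviated by 0.32. The 5 were bright, with ga1-3 means of 3569 to 6809, while that of HTR12 was 140. Family and signal level therefore cannot be told apart in this contrast, and no comparison with equally bright probe sets was made. The other groups held smaller spreads of the same kind. H2B, H3.1 and H4 deviated by a median of 0.12, -0.09 and -0.01 in scl3-1 replicates 1, 2 and 3 and by 0.10, -0.07 and -0.03 in SCL3OE replicates 1, 2 and 3. Of the 9 arrays, ga1-3 replicate 1 was the highest for 9 of these 18 probe sets (50%), against 15.7% of all tested probe sets.

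MCM7 (AT4G02060), which encodes a subunit of the replicative helicase, read 403 on that array and 294 and 292 on the other ga1-3 arrays. The other tested replication gene, ICU2, went the other way, with 127 on that array and 153 and 160 on the others, as did LBD16, a marker of lateral root primordia, with 231 there and 328 and 355 on the others. The cell cycle inhibitor gene SIM read 2587 there and 1983 and 1980 on the others. Of the mitotic aurora kinase genes, AUR1 read 648 there and 590 and 572 on the others, and AUR2 465, 334 and 422. AUR3 was not highest there (170, against 136 and 172). The chaperone genes ASF1A and ASF1B, the H2A.Z deposition gene SWC2 and EXPA7 were also highest there. The chaperone gene AT4G37210 and EXPA18 were not. Whether the array's root material held more dividing cells was not tested. Without ga1-3 replicate 1, 9 of the 24 histone probe sets were called in SCL3OE against ga1-3, 7 higher and 2 lower, in place of 6. In that fit 18.2% of all tested probe sets were called higher and 24.5% lower. The 4 gained were HTB2, AT3G53650 (0.57, adjusted p = 0.0154), 257714_at of H3.1 (0.32, adjusted p = 0.0221) and 266226_at of H4, and HTB4 was lost (adjusted p = 0.0824). In scl3-1 against ga1-3 the count stayed at 0, and the median change of the members went from -0.04 to 0.02.

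**Figure D5:**
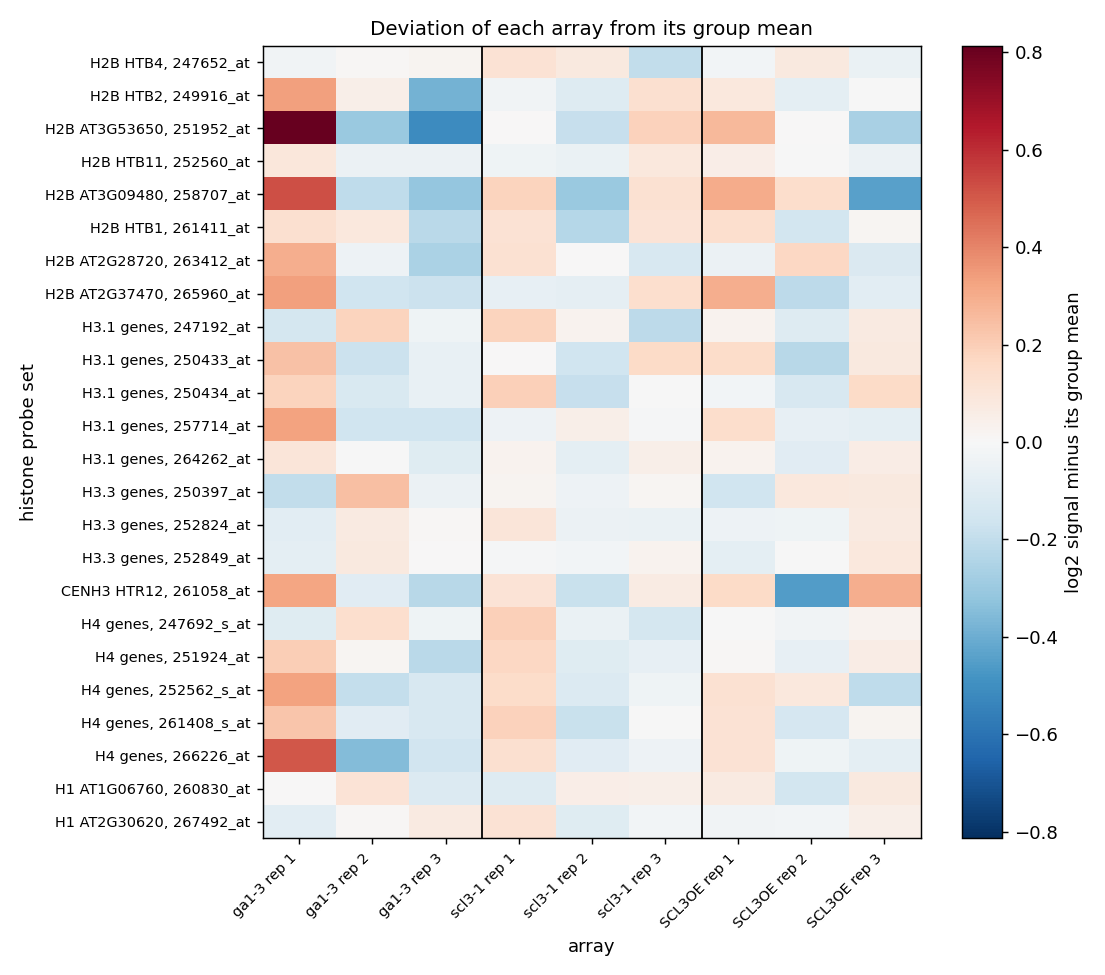
Log2 signal of each tested histone probe set (rows) minus its group mean on each of the 9 arrays (columns), red above and blue below the mean. In the column of ga1-3 replicate 1, 15 of the 18 probe sets of H2B, H3.1 and H4 are red, the 3 of H3.3 are blue, and AT1G06760 of H1 is near 0 (0.0017).

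Genes that work with histones were followed in lists of chaperones, replication, cell cycle and chromatin genes. Few of their genes had a named probe set: 3 of 12 histone chaperone genes, 2 of 18 DNA replication genes, 3 of 15 mitotic genes, 1 of 5 endocycle genes, 1 of 5 H2A.Z deposition genes, and 0 of the lists for E2F and RBR, G1 cyclins and HMGB proteins. In scl3-1 against ga1-3 limma called 0 of these 10 tested genes, beside 0.538% of all tested probe sets, so a count of 0 is uninformative here. The calls in SCL3OE against ga1-3 given next stand beside 18.0% of all tested probe sets called higher and 25.9% lower.

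ASF1B (AT5G38110), a chaperone that hands H3 and H4 to the assembly machinery, was called lower in SCL3OE as deposited. It read 963, 886 and 876 in ga1-3, 776, 762 and 835 in scl3-1, and 771, 749 and 698 in SCL3OE. The arrays of both lines lay below every ga1-3 array. Its change in SCL3OE was -0.30 (SE 0.09, adjusted p = 0.0185), while that in scl3-1 was -0.20 (SE 0.09, adjusted p = 0.471). The SCL3OE call was lost on quantile-normalized arrays (-0.19, adjusted p = 0.124) and on median-centred ones (-0.21, adjusted p = 0.0785). ASF1A (AT1G66740), its paralogue, changed by -0.09 (SE 0.12) in SCL3OE and the listed chaperone gene AT4G37210 by 0.08 (SE 0.10), and neither passed.

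Neither replication gene passed in SCL3OE against ga1-3 as deposited: MCM7 changed by 0.26 (SE 0.14, adjusted p = 0.158) and ICU2 (AT5G67100), which encodes the catalytic subunit of DNA polymerase alpha, by 0.13 (SE 0.17, adjusted p = 0.546). MCM7 passed on quantile-normalized arrays (0.38, adjusted p = 0.0376) and not on median-centred ones (0.34, adjusted p = 0.0556). Of the aurora kinases, which phosphorylate histone H3 in mitosis, AUR1 (-0.27, SE 0.10) and AUR2 (-0.47, SE 0.17) were called lower as deposited and AUR3 was not (-0.32, SE 0.17, adjusted p = 0.129). Neither call held after rescaling: AUR1 had adjusted p = 0.306 by quantile normalization and 0.155 by median-centring, and AUR2 had 0.0952 and 0.0525. SIM rose by 0.39 (SE 0.11, adjusted p = 0.01), which did not pass on quantile-normalized arrays (0.31, adjusted p = 0.056). In the same comparison SWC2 (AT2G36740), of the complex that deposits H2A.Z, changed by -0.11 (SE 0.15). LBD16 did not pass (-0.41, SE 0.19, adjusted p = 0.0835), with signals of 231, 328 and 355 in ga1-3 and 191, 212 and 283 in SCL3OE. Of the root hair markers, EXPA18 (-0.91, SE 0.09) and EXPA7 (-0.37, SE 0.12) were called lower, beside the histone values above. EXPA18 was called under all 3 scalings, and EXPA7 was not by quantile normalization (-0.26, adjusted p = 0.103). The part of both root hair genes in the histone values was not tested.

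Among other histone genes outside the members, 4 were on named probe sets and none was bright enough to test. They were the male-gamete-specific H3 gene MGH3 (AT1G19890), at 3.50 to 22.7 over the 9 arrays, and AT1G75600, AT5G12910 and AT1G08170, at or below 49.7 on every array.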

How the data were processed

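The authors deposited MAS5 signal intensities per probe set, made with Affymetrix Expression Console 1.1 per the submitters' processing notes. Per the labels' protocols, each labelling started from 300 ng of total RNA and used biotin. The target value is not given in the sources used here, and no detection calls were used here. Logarithms to base 2 (log2) of the deposited values were used without rescaling, and 14117 of 22746 probe sets were kept by the 40th percentile rule. With limma 3.58.1 under R 4.3.3, one mean per group was estimated from the 9 arrays together, with a trended eBayes prior (6 residual and 9.37 prior degrees of freedom). Two-sided p-values received the Benjamini-Hochberg adjustment across every kept probe set. Every adjusted p and SE of a gene is from limma, and SDs are over 3 arrays. The labels say biological replicates but do not name plants or cultures. Genes were named through a probe table (14016 entries, 13513 with 1 gene and 503 with several) and the TAIR10.1 gene table, used for names only. Member probe sets called in any comparison, and the lowest p of each family, have their values on all arrays given. From other lists the 4 lowest p-values were taken, or all where at most 6 were measured. The members, the lists and the tests were chosen with earlier results of these data known. Alternatives were array weights, an untrended or robust eBayes prior, quantile normalization, median-centred arrays, no dim filter or one at the 60th percentile, 50 added before taking logs, the replicate number as a block, fitting only the 6 arrays compared, and leaving out each of the 9 arrays. The mean signal limit of 1000, the ratios within arrays and the deviations per array were added after the data had been seen.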

Additional observations from a re-analysis of the deposited data

How the results depend on the processing

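The count of 0 called histone probe sets in scl3-1 against ga1-3 was the same under all 19 alternatives. Under these at most 0.68% of all tested probe sets were called higher and 0.368% lower. In SCL3OE against ga1-3 the main count was 6, and it ranged from 3 to 9 when 1 array was left out, with 3 without SCL3OE replicate 1 or replicate 2. In the fits with 1 array left out, 14.5% to 18.8% of all tested probe sets were called higher and 21% to 26.8% lower. Under the other 10 alternatives the member count was 4 to 8. There 11.5% to 22.6% of all tested probe sets were called higher and 15.6% to 28.4% lower. Quantile normalization, however, turned the split of the members from 4 higher and 2 lower to 2 higher and 4 lower. It turned the sign of 6 changes. Of these, 3 had been called, 247652_at (-0.0512), 250397_at (-0.0932) and 252824_at (-0.13), and lost the call. The 3 others were 247692_s_at (-0.25, now called), 247192_at and 251924_at. In SCL3OE against scl3-1 the main count was 7. It was 3 after quantile normalization, 11 with array weights, 11 with only the 6 arrays compared, and 5 to 10 with 1 array left out. Of all tested probe sets, array weights called 18.4% higher and 28% lower, and the 6 arrays 17% and 25.4%. Quantile normalization called 16.4% and 17%, and the fits with 1 array left out 12% to 16.7% and 18.6% to 25.3%. There too quantile normalization turned 6 signs, 2 of them of called changes, 247692_s_at (-0.09) and 252824_at (-0.0146), and none of the 6 was called after it. That normalization equalises the wider SCL3OE distributions, so it moves bright probe sets most. Over all kept probe sets, same-numbered arrays of different groups had correlations of -0.19 to 0.18 in their deviations, and not each was positive. The 18 probe sets of H2B, H3.1 and H4 were more alike by number. Replicate 1 was highest of its group for 83.3% of them in ga1-3, 61.1% in scl3-1 and 61.1% in SCL3OE. Over all tested probe sets this was 40.8%, 34.8% and 34.6%. Replicate 2 was highest for 11.1%, 5.56% and 11.1% of the 18. The families differed. In scl3-1, replicates 1 and 3 were each highest for 4 of 8 H2B and 2 of 5 H3.1 probe sets, and replicate 1 for 5 of 5 of H4. In SCL3OE, replicate 1 was highest for 6 of 8 of H2B and 3 of 5 of H4, but replicate 3 for 3 of 5 of H3.1. For H3.3 and H1, replicate 1 was highest for 60% in scl3-1 and 0% in ga1-3 and SCL3OE. Probe sets that list the same genes are not independent counts. Whether the numbers mark a shared batch was not tested. With a replicate block the member counts were 0 in scl3-1 against ga1-3, 6 in SCL3OE against ga1-3 and 9 in SCL3OE against scl3-1. Of all tested probe sets, 0.368%, 17.9% and 15.2% were then called higher and 0.149%, 25.8% and 23.6% lower. Arrays give no depth, and 4 dim histone probe sets were tested only without the dim filter.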
